A study of Mus musculus with 24 samples.

Results

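Homeobox genes encode transcription factors that bind DNA through a homeodomain and set the identity of cells and regions in the embryo. The genes described here are 32 homeobox genes of the Dlx, Irx, Lhx, Nkx and Meis families and of the family of Six2 to Six6, which lie outside the Hox clusters. They were taken by name from a list and found at their RefSeq GRCm38.p6 coordinates, and all 32 matched among 21887 protein-coding genes. By family they are Dlx1 to Dlx6, Six2 to Six6, Irx1 to Irx6, Lhx1, Lhx3, Lhx4, Lhx5, Lhx6, Lhx8 and Lhx9, Nkx2-1, Nkx2-2, Nkx2-9, Nkx6-1 and Nkx6-2, and Meis1 to Meis3.

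As background, Dlx factors act in the forebrain, jaw and limb, Six2 and its relatives in the eye, kidney and muscle, and Irx (Iroquois) factors in the patterning of neural tube and heart. Lhx factors carry LIM domains and act in motor neuron, interneuron and organizer programmes, Nkx factors pattern the ventral neural tube, lung and thyroid, and Meis factors are partners of Hox proteins. In pluripotent cells, silent genes of this kind are known to carry H3K4 methylation together with the Polycomb mark H3K27me3, a state called bivalent. H3K4me1 is known mostly from enhancers and H3K4me2 from both enhancers and promoters.

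The study profiled the zinc finger protein PRDM16 and the histone marks H3K4me1 and H3K4me2 by CUT&RUN, in which a nuclease tethered to an antibody releases the DNA beneath it for sequencing. Libraries came from mouse ES cells kept with LIF on Matrigel and from embryoid bodies (EB) differentiated from ES cells for 6 days, all on a C57BL/6 background. Each stage had wild-type and Prdm16 KO cells, with 2 libraries for each antibody, stage and genotype, so that 16 H3K4me lists of peaks and 8 PRDM16 lists were used. The sources used here give neither how the knockout was made nor whether it is 1 clone. They name no separate cultures for the libraries of a group either, so the spread between them, which every p-value here measures, may be technical.

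H3K4me2 lists held 13818 to 32874 peaks and H3K4me1 lists 5990 to 15435, and read depth was unknown. A gene is called marked in a library when a peak lay within 2500 bp of either end of the gene. The KO labels could not be checked from these files. H3K4me2 peaks covered 13.2 and 11.1 kb of Prdm16 (chr4:154316122-154637360) and its flanks in wild-type and 27.7 and 25.8 kb in KO ES cells, against 6.10 and 8.90 kb in wild-type EB and 0 kb in both KO EB libraries. Pluripotency genes went in different directions between the stages. Pou5f1 was marked by H3K4me2 in 0 of 4 ES and 3 of 4 EB libraries, and Nanog by H3K4me1 in 0 of 4 ES and 4 of 4 EB libraries. Zfp42 was marked by H3K4me1 in 4 of 4 ES and 0 of 4 EB libraries, and Dppa3 and Tfcp2l1 each in 3 and 0. By H3K4me2, Tfcp2l1 was marked in 3 ES and 4 EB libraries, Zfp42 in 4 and 2 and Dppa3 in 3 and 1. Pou5f1 by H3K4me1 and Nanog by H3K4me2 were each in 0 ES and 2 EB libraries. Prdm14 was marked in 0 ES libraries by either mark, and in EB in 3 by H3K4me1 and 4 by H3K4me2. Klf4 was marked by H3K4me1 in 0 ES and 2 EB libraries, and by H3K4me2 in 4 of 4 at both stages. Sox2 and Esrrb were marked in at most 1 library of a mark and stage, and Tbx3 in 0. Of 10 pluripotency markers, 2 to 7 were marked per list, and of 5 fibroblast or feeder markers, 1 to 5. Of 5 markers each, 1 to 3 were marked for neuroectoderm, 1 to 3 for mesoderm and 0 to 3 for endoderm. ES and EB are used as the labels give them, and absence of a peak was not read as absence of the mark. The part of cell type or depth in the results was not tested. In bulk chromatin, fewer cells with a mark and less of it in each cell cannot be told apart.

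RefSeq promoter sequences of GRCm38.p6 were matched for 24 of the 32 genes, with 28 start sites in all. Not matched were Dlx3, Dlx4, Dlx5, Dlx6, Irx1, Irx5, Irx6 and Lhx5. The 250 bases before the start are printed for 6 genes whose peaks show the range of patterns in these data, from a peak in each H3K4me list (Lhx8) to none (Six3). They are given 5′ to 3′ on the strand of the gene, in lower case with each CG dinucleotide in capitals.
Lhx8 (chr3:154330561-154330810, minus strand): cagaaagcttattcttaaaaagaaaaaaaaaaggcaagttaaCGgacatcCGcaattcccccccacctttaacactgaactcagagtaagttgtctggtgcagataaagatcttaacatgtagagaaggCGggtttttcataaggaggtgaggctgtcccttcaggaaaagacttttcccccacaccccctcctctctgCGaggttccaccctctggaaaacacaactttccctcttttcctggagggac
Six3 (chr17:85620584-85620833, plus strand): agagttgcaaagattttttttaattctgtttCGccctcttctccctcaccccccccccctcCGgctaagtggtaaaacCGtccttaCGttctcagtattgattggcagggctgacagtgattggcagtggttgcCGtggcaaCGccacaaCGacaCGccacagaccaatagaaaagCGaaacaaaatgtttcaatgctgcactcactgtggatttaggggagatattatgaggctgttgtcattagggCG
Six2 (chr17:85688255-85688504, minus strand): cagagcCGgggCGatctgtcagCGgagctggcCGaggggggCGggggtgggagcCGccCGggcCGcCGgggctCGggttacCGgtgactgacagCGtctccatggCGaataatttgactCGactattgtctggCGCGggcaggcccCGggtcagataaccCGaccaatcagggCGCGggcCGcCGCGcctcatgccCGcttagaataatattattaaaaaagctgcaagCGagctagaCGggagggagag
Nkx2-1 (chr12:56536909-56537158, minus strand): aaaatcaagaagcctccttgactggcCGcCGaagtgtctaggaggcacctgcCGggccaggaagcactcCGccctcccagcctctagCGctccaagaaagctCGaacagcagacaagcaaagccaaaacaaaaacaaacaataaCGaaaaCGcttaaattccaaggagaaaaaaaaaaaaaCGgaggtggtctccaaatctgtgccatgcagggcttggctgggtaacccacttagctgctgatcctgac
Nkx6-2 (chr7:139582798-139583047, minus strand): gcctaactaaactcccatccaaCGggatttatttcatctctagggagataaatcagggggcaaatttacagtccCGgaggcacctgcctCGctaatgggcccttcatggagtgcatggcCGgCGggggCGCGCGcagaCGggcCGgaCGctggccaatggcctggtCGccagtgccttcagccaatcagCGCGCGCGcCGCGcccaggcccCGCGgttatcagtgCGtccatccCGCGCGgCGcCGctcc
Meis3 (chr7:16175145-16175394, plus strand): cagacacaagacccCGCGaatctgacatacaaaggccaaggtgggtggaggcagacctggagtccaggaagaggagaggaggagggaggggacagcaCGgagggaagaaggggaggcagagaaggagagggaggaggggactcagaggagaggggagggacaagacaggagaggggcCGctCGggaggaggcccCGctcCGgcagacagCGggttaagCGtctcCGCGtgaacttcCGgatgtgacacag
The stretch before Lhx8 holds 4 CG dinucleotides and lay under a peak in 8 of 8 H3K4me1 and 8 of 8 H3K4me2 lists. The stretch before Six3 holds 10 and lay under a peak in 0 lists of either mark. Six2, with 26, was under a peak in 4 H3K4me1 lists and 0 H3K4me2 lists, and Nkx6-2, also with 26, in 1 and 3. Among these stretches the number of CG dinucleotides did not follow the number of lists with a peak. Nkx2-1 holds 9 and was under a peak in 5 and 5 lists, and Meis3 holds 12 and was under one in 2 and 8. Over the 28 stretches the median was 13.5 CG dinucleotides (4 to 30), against 10 over 21235 stretches of other protein-coding genes. The GC content had a median of 62% against 55.6%.

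Short motifs were searched on both strands of the same stretches. TAATTA, the core that many homeodomains bind and its own reverse complement, was in 0 of the 28, against 4.31% of other stretches. TGACAG, the core bound by Meis proteins, was in 6 (21.4%), against 15.4%, and those of Six2, Six3 and Six6 were among the 6. TATAAA was in 2 (7.14%), against 11.6%. Matches of different motifs may overlap, and a match in a window of this length is a description only.

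Over the 16 H3K4me lists, the listed genes ranged from always to never marked. Lhx8 was marked in 16 lists and Six3 in 0, and the median gene was marked in 7. The other 21855 protein-coding genes also had a median of 7 lists, but 27.3% of them were marked in none and 0.531% in all. Between those extremes lay 30 of the 32 listed genes (93.8%) and 72.2% of other genes. By family, the share of gene and library pairs that were marked was 21.9% for Dlx, 41.7% for Irx, 43.8% for Six2 to Six6, 45.5% for Lhx, 48.8% for Nkx and 58.3% for Meis.

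**Figure D1:**
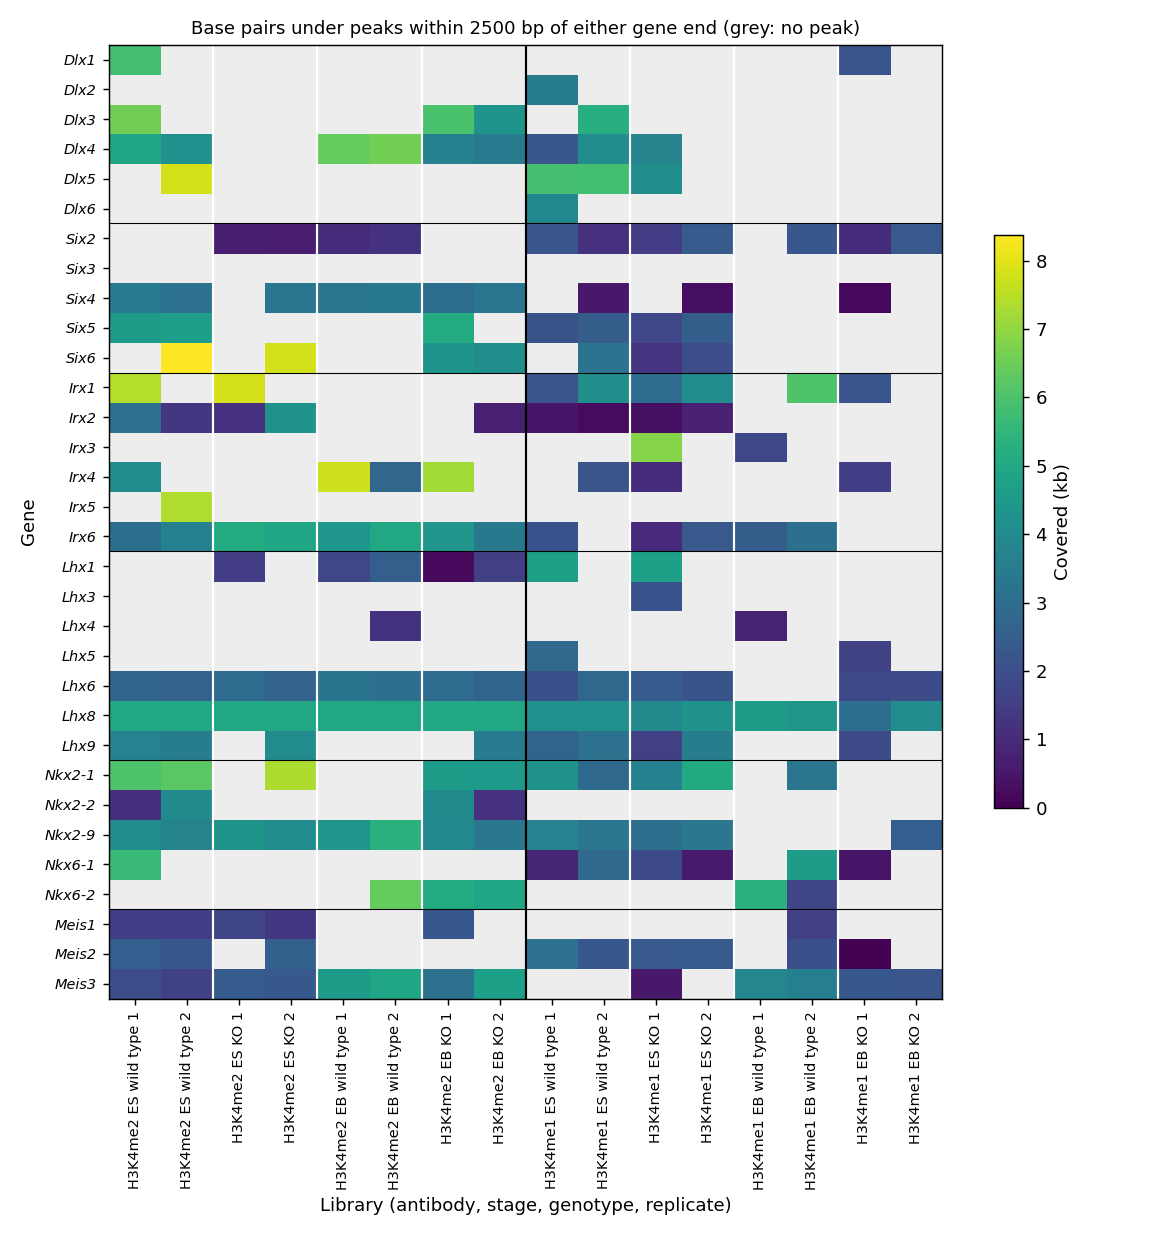
Kilobases under peaks within 2500 bp of either gene end, for each of the 32 genes (vertical axis, by family) in each of the 16 H3K4me libraries (horizontal axis); grey cells had no peak. Lhx8 is coloured in every library, Six3 in none, and the Dlx genes are mostly grey.

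H3K4me2 was found at fewer of these genes in KO than in wild-type ES cells, and at more of them in KO than in wild-type EB. In ES cells 19 and 17 genes were marked in the wild-type libraries and 10 and 13 in the KO libraries, a mean of 18 ± 1.41 against 11.5 ± 2.12 (SD, n = 2 each). In EB 10 and 12 were marked in wild type against 16 and 15 in KO, a mean of 11 ± 1.41 against 15.5 ± 0.707 (SD, n = 2 each). The libraries of the genotypes did not overlap at either stage on this count, and the KO minus wild-type difference was -6.5 genes in ES cells and 4.5 in EB. The separation in ES cells also held for peaks over the gene spans, with 21 and 19 genes in wild type against 10 and 14 in KO. That in EB did not, with 10 and 15 in wild type against 17 and 15 in KO. H3K4me2 peaks covered 124.7 and 107.2 kb of the spans and their 2500 bp flanks in wild-type against 67.1 and 88.0 kb in KO ES cells. In EB the covered lengths overlapped, at 68.8 and 87.8 kb in wild type against 88.9 and 69.5 kb in KO. Covered length within 2500 bp of the gene ends did not overlap at either stage. It was 77.5 and 71.1 kb in wild-type against 32.9 and 50.4 kb in KO ES cells. In EB it was 41.9 and 47.5 kb in wild type against 64.9 and 50.8 kb in KO. With 2 libraries against 2, no exact permutation test of 1 stage and mark can give a p below 0.33. The difference between the stages was not tested.

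Other protein-coding genes did not divide in this way. Of them, H3K4me2 marked 56.1% and 54.2% in wild-type against 54.7% and 58.2% in KO ES cells. In EB it marked 51.1% and 55.5% in wild type, against 54.9% and 51.6% in KO. The genotypes overlapped at both stages. The KO ES lists were also the longest, with 29138 and 32874 peaks against 24600 and 22615 in wild type, so the lower count of listed genes stood beside a higher count of peaks. KO replicate 2 in ES cells and wild-type replicate 2 in EB have another title prefix than the other H3K4me libraries. The prefix was read here as another library series, though the titles do not say what it stands for. Without these libraries the differences were -8 and 5.5. In EB the difference was 2.5 with the higher-scoring 50% of each list and 7 with lists of equal length.

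A further 71 homeobox genes outside the Hox clusters, among them Gsc, En2 and Emx2, followed the same order of genotypes. H3K4me2 marked 52 and 47 of them in wild-type against 35 and 40 in KO ES cells. In EB it marked 26 and 30 in wild type against 42 and 37 in KO. The differences were -12 and 11.5 genes, with no overlap of libraries, and became -2.5 and 1.5 in the higher-scoring 50% of peaks. The 39 Hox genes were at 22 and 22 in wild-type against 12 and 16 in KO ES cells, but overlapped in EB, with 5 and 14 in wild type against 4 and 5 in KO. Among 20 genes for partner proteins of these factors, such as Pbx, Eya, Ldb, Lmo and Tle genes, H3K4me2 marked 13 and 11 in wild-type against 10 and 12 in KO ES cells. In EB it marked 9 and 9 of them in wild type against 12 and 10 in KO.

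**Figure D2:**
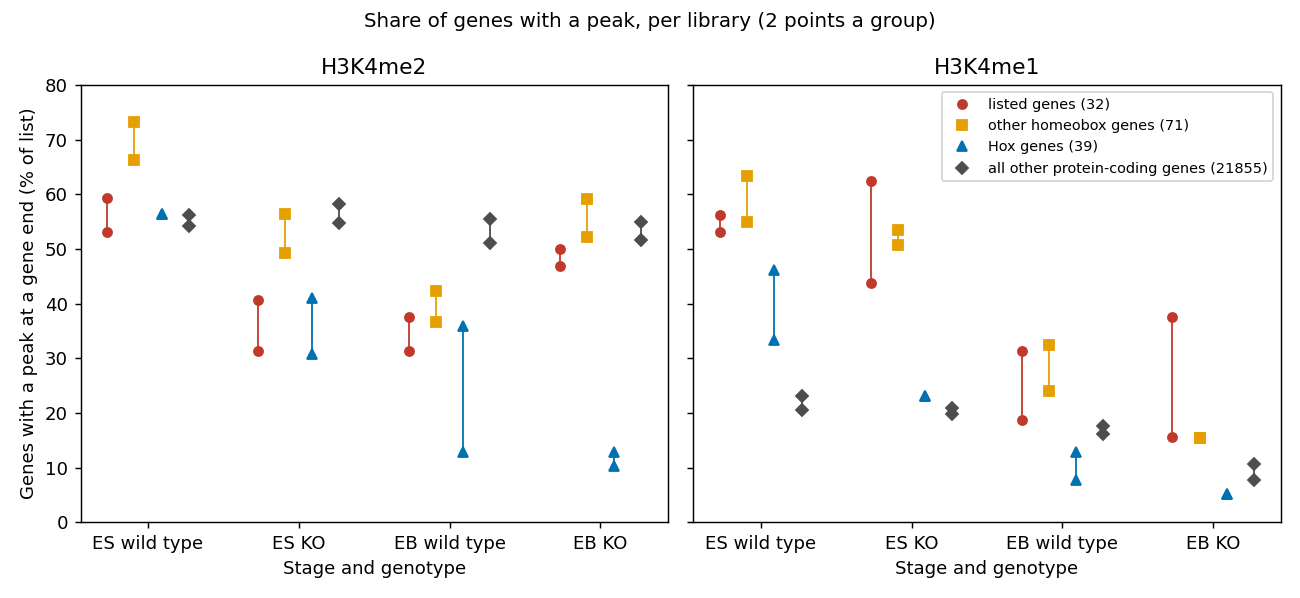
Share of genes marked (vertical axis, %) by H3K4me2 (left) and H3K4me1 (right) for each stage and genotype; each point is a library and a line joins the 2 libraries of a group. For H3K4me2, the 32 listed genes and the 71 other homeobox genes are lower in KO ES cells and higher in KO EB, while all other genes overlap.

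H3K4me1 showed no such order in the number of listed genes marked. In ES cells 18 and 17 were marked in wild type against 20 and 14 in KO, whereas EB had 6 and 10 in wild type against 12 and 5 in KO. The genotypes overlapped at both stages, with means of 17.5 ± 0.707 and 17 ± 4.24 in ES cells and 8 ± 2.83 and 8.5 ± 4.95 in EB (SD, n = 2 each). The KO libraries of a stage differed from each other more than the genotype means did. The covered H3K4me1 length over spans and flanks was 85.6 and 80.4 kb in wild-type against 74.9 and 74.2 kb in KO ES cells. At the gene ends it was 19.0 and 32.8 kb in wild-type against 18.6 and 13.0 kb in KO EB. In the other stage, each of these lengths overlapped. H3K4me1 marked 45 and 39 of 71 other homeobox genes in wild-type against 36 and 38 in KO ES cells. In EB it marked 17 and 23 against 11 and 11. Hox genes were also lower in KO without overlap at both stages. In EB the H3K4me1 lists were shorter in KO, with 8943 and 5990 peaks against 14082 and 13260 in wild type, at unknown read depth. H3K4me1 peaks marked 10.7% and 7.80% of other genes in KO EB, against 17.7% and 16.2% in wild type. In ES cells H3K4me1 marked 43.8% to 62.5% of the listed genes per library, against 19.8% to 23.2% of other genes. In EB the ranges were 15.6% to 37.5% and 7.80% to 17.7%.

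Peaks at these genes often appeared in only 1 library of a pair. For H3K4me2, 36.4% of the listed genes marked in any wild-type ES library were marked in only 1 of the 2, and 46.7% in KO ES cells, against 13.3% and 12.0% of other genes. In EB these were 16.7% for wild type and 27.8% for KO, against 14.6% and 15.3%. For H3K4me1 they were 40.9% and 38.1% in ES cells and 66.7% and 69.2% in EB, with 53.2% and 56.2%, and 59.7% and 71.9%, for other genes. The calls that follow therefore use only genes that both libraries of a group marked and neither library of the other group did.

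On that rule, a gene with peaks in the 2 wild-type libraries of 1 mark and stage and in no KO library is called wild-type-only, and the reverse KO-only. For H3K4me2 in ES cells, Dlx4, Six5 and Nkx2-2 were wild-type-only, which is 3 of the 14 listed genes marked in both wild-type libraries, against 2.35% of other genes. Six2 was KO-only, 1 of 8, against 3.62%. In EB, Six2 was wild-type-only, 1 of 10, against 3.33%, and Dlx3, Six6, Nkx2-1 and Nkx2-2 were KO-only, 4 of 13, against 4.16%. For H3K4me1 in ES cells 0 of 13 were wild-type-only and 0 of 13 KO-only, against 12.9% and 10.6%. In EB, Irx6 and Nkx6-2 were wild-type-only, 2 of 4, against 42.5%, and Lhx6 was KO-only, 1 of 4, against 14.2%.

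These counts were small and moved by more than 1.5 times when 1 library was left out. For H3K4me2 in ES cells, 7 genes were wild-type-only without KO replicate 2 or without wild-type replicate 2, and 5 without wild-type replicate 1. Without KO replicate 2, 2 were KO-only there. In EB 2 were wild-type-only without wild-type replicate 1 or without KO replicate 1. For H3K4me1 in EB, 4 were wild-type-only without either wild-type library, and KO-only genes numbered 6 without KO replicate 2 and 2 without KO replicate 1 or wild-type replicate 2. In ES cells, leaving out 1 library gave up to 3 of either kind for H3K4me1. With the higher-scoring 50% of each list, Six5 (wild-type-only in ES cells) and Nkx2-1 (KO-only in EB) kept their H3K4me2 calls, while those of Dlx3, Dlx4, Six2, Six6 and Nkx2-2 and each H3K4me1 call ended. With lists of equal length the H3K4me2 calls of Dlx4 and Six2 in ES cells and the H3K4me1 calls of Irx6 and Nkx6-2 ended.

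Counting single libraries as well, 13 of the 32 genes had H3K4me2 in fewer KO than wild-type ES libraries, 17 in as many and 2 (Six2 and Lhx1) in more. In EB, 3 had it in fewer (Six2, Irx4 and Lhx4), 20 in as many and 9 in more. Dlx3, Six5, Lhx9, Nkx2-1 and Nkx2-2 were in fewer KO libraries in ES cells and in more in EB, and Six2 was the reverse.

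**Figure D3:**
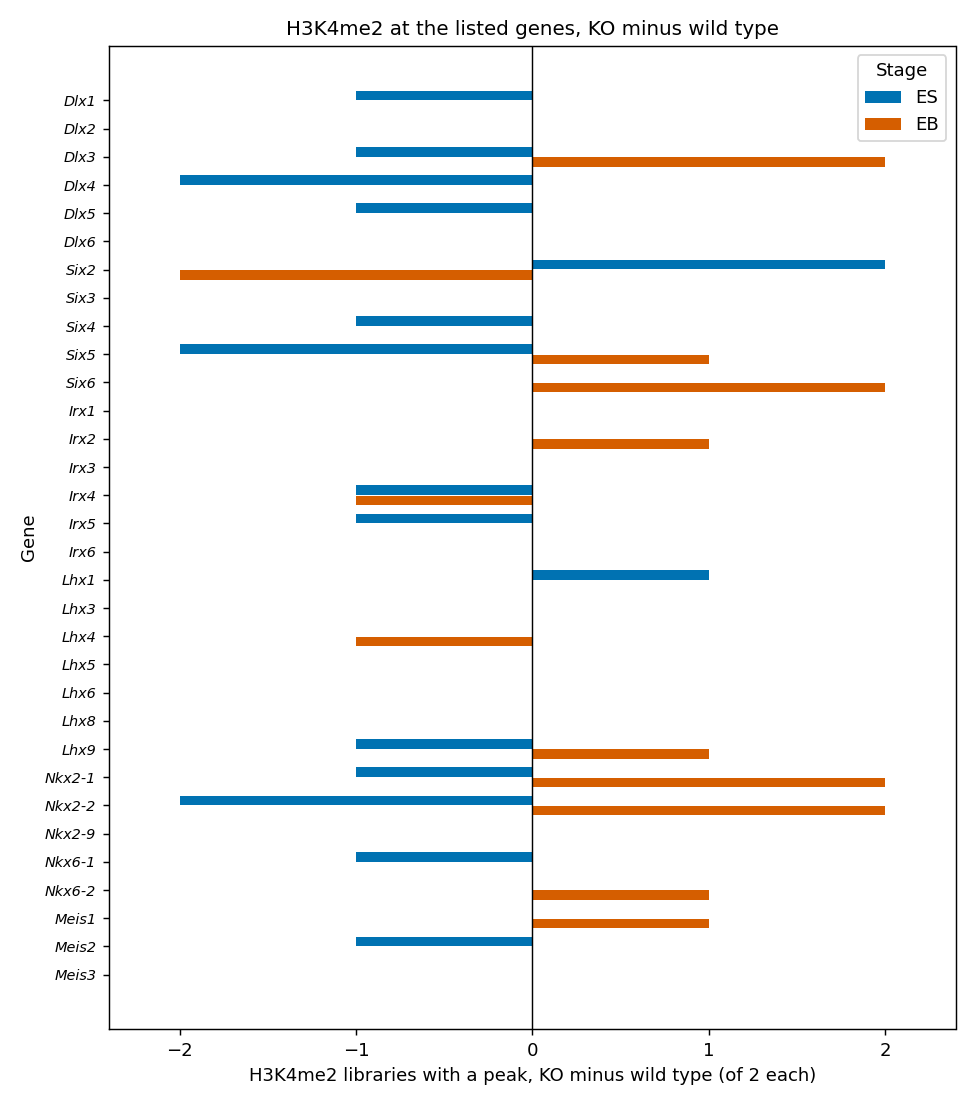
Number of H3K4me2 libraries with a peak, KO minus wild type (horizontal axis, 2 libraries each), for each listed gene (vertical axis) in ES cells (blue) and EB (orange). Bars to the left are mostly blue, for 13 genes, and bars to the right mostly orange, for 9 genes.

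Nkx2-2, which specifies ventral neural tube and pancreatic islet cells, gave both calls. On chr2:147176485-147195434, H3K4me2 peaks covered 1.13 and 4.01 kb at its ends in wild-type ES cells and 0 kb in both KO libraries. In EB they covered 0 kb in both wild-type libraries and 3.98 and 1.19 kb in KO. The genotypes did not overlap at either stage, and their order was opposite. Both calls ended within 1000 bp of the gene ends and with the higher-scoring 50% of peaks. The peaks lay at chr2:147177738-147180281 and chr2:147192079-147195823, and the 250 bases before its RefSeq start at 147186402 were under a peak in 0 lists. H3K4me1 gave it no peak in 8 lists, the nearest lying 58834 bp away.

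Nkx2-1, a regulator of lung, thyroid and ventral forebrain development, lies at chr12:56531935-56536908. H3K4me2 covered 6.05 and 6.23 kb in wild-type ES cells and 0 and 7.35 kb in KO, so that the KO libraries lay on either side of wild type. In EB it covered 0 kb in both wild-type libraries and 4.63 and 4.52 kb in KO. H3K4me1 covered 4.30 and 2.86 kb in wild-type and 3.67 and 5.09 kb in KO ES cells, and in EB it was found in 1 wild-type library at 3.29 kb and in no KO library. Peaks of either mark, at chr12:56531147-56538499 for H3K4me2, took in the printed stretch before the start.

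Nkx2-9, its neighbour 74.5 kb away on chromosome 12 and a ventral midline gene, did not follow it. It carried H3K4me2 in all 8 libraries, with 4.02 and 3.76 kb in wild-type and 4.32 and 4.03 kb in KO ES cells. In EB the values were 4.37 and 5.35 kb in wild type and 3.91 and 3.35 kb in KO. Its H3K4me1 was in all 4 ES libraries, at 3.09 to 3.69 kb, and in 1 EB library.

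Nkx6-1 and Nkx6-2, repressors that pattern motor neuron and oligodendrocyte progenitors, differed from each other by stage. Nkx6-1 had H3K4me1 in all 4 ES libraries, at 0.603 to 2.85 kb, and in 2 EB libraries. Nkx6-2 (chr7:139579376-139582797) had no peak of either mark in 8 ES libraries. In EB its H3K4me2 covered 0 and 6.39 kb in wild type and 5.13 and 4.92 kb in KO, and its H3K4me1 5.31 and 1.75 kb in wild type and 0 kb in both KO libraries. The marks thus divided the EB genotypes differently at this gene, with H3K4me1 in both wild-type libraries and H3K4me2 in 3 of 4 libraries. Other genes were also marked less often by H3K4me1 in KO EB, where the lists were shorter, as given above.

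Six2, which keeps nephron progenitors undifferentiated, had its marks at opposite ends. Six2 lies at chr17:85662736-85688254 on the minus strand, and its H3K4me1 peaks lay at its start, at chr17:85688349-85693813, in 7 of 8 libraries. Its H3K4me2 peaks lay at the far end, at chr17:85663997-85665915, and covered 0 kb in both wild-type and 0.707 and 0.655 kb in KO ES cells. In EB they covered 1.07 and 1.24 kb in wild type and 0 kb in both KO libraries. Within 2500 bp of the ends the genotypes did not overlap at either stage, in the reverse order of Nkx2-2, but both calls ended within 1000 bp. These peaks were narrow and stood low in their lists, at 68.1% to 90.6% from the top by score, so that both calls also ended with the higher-scoring 50%. H3K4me2 peaks also lay inside the gene beyond its end windows in ES cells, and over the whole gene span they covered 1845 and 1343 bp in wild type, against 4000 and 3471 bp in KO.

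Six3, an eye and forebrain gene 36.5 kb from Six2, had no peak in any of the 16 lists. The nearest H3K4me2 peak lay 3568 bp and the nearest H3K4me1 peak 4005 bp from the gene.

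Six5 and Six6 carried H3K4me2 in EB in KO libraries only. Six5 (chr7:19094544-19098549), known from lens and muscle, had 4.62 and 4.65 kb in wild-type and 0 kb in both KO ES libraries, and in EB 0 kb in both wild-type libraries and 5.14 and 0 kb in KO. Six6 (chr12:72939882-72944899), an eye and pituitary gene, had 0 and 8.37 kb in wild-type and 0 and 7.81 kb in KO ES cells, and 4.33 and 4.18 kb in KO EB against 0 kb in both wild-type libraries. Both genes had H3K4me1 in ES libraries, Six5 in 4 at 1.77 to 2.48 kb and Six6 in 3, and neither had it in EB. Six4, a muscle and kidney gene, had H3K4me2 in 7 of 8 libraries, at 3.02 to 3.43 kb, and lacked it in KO ES replicate 1.

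The Dlx genes lie as neighbouring pairs, and the pairs differed in how far partners were marked together. Dlx1 and Dlx2 (9.43 kb apart) were marked in the same library 0 times, Dlx1 alone in 2 libraries and Dlx2 alone in 1. Dlx5 and Dlx6 (9.83 kb apart) were marked together in 1 library, Dlx5 alone in 3 and Dlx6 alone in 0. Dlx3 and Dlx4 (15.2 kb apart) were marked together in 4 libraries Dlx4 alone in 5 and Dlx3 alone in 0, so that Dlx3 and Dlx6 were never marked without their partner.

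Dlx4 (chr11:95140447-95146294) is known from placenta and craniofacial tissue. H3K4me2 covered 4.96 and 4.22 kb in wild-type and 0 kb in both KO ES libraries, and 6.40 and 6.58 kb in wild-type against 3.67 and 3.43 kb in KO EB. The covered length was lower in KO without overlap at both stages. By score, however, the wild-type EB peaks stood lower in their lists, at 93.8% and 94.5% from the top, against 54.0% and 71.9% in KO. H3K4me2 peaks were also wider throughout the wild-type EB lists, with medians of 3147.5 and 3013 bp against 2331 and 2606 bp in KO. H3K4me1 covered 2.26 and 4.11 kb in wild-type and 3.74 and 0 kb in KO ES cells, and 0 kb in all EB libraries. Over both marks and stages Dlx4 was marked in 6 wild-type and 3 KO lists, a difference of -3 (two-sided exact permutation p = 0.167, adjusted p = 1). With lists of equal length the difference was 0.

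Dlx3, an epidermal and placental gene, had H3K4me2 at 6.54 and 0 kb in wild-type and 0 kb in both KO ES libraries, and at 0 kb in both wild-type and 5.96 and 4.32 kb in KO EB. Dlx5, a bone and forebrain gene, had H3K4me1 at 5.90 and 5.85 kb in wild-type and 4.12 and 0 kb in KO ES cells, and no peak of either mark in EB. The EB genotypes did not overlap at Dlx3 and were both without peaks at Dlx5.

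Among the Lhx genes, Lhx8 (chr3:154306288-154330560), a gene of cholinergic forebrain neurons and oocytes, had H3K4me2 over the whole window of 5.00 kb at its start in all 8 libraries. Its H3K4me1 covered 4.20 and 4.20 kb in wild-type and 3.93 and 4.30 kb in KO ES cells, and 4.64 and 4.44 kb in wild-type and 3.04 and 4.05 kb in KO EB. The EB genotypes did not overlap for H3K4me1, in the direction of other genes. Its peaks ran from 154326926 to 154335019 for H3K4me2 and took in the printed stretch with its 4 CG dinucleotides.

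Lhx6, a gene of cortical interneurons (chr2:36081950-36105992), also had H3K4me2 in all 8 libraries, at 2.62 to 3.26 kb. Its H3K4me1 covered 2.06 to 2.80 kb in the 4 ES libraries, 0 kb in both wild-type EB libraries and 1.89 and 1.90 kb in KO EB. Lhx9, a gonad and limb gene, had H3K4me2 at its ends at 3.73 and 3.52 kb in wild-type and 0 and 4.05 kb in KO ES cells. In EB its ends had it in KO replicate 2 only, at 3.45 kb. Inside the gene, beyond these windows, H3K4me2 peaks covered 4312 bp in KO EB replicate 1 and 1114 bp in wild-type EB replicate 2. Lhx1, an organizer and kidney gene, had H3K4me2 in all 4 EB libraries, at 0.210 to 2.53 kb, and in 1 KO ES library. As at Six2, the H3K4me2 of Lhx1 lay at the far end of the gene, at chr11:84510882-84518000, while H3K4me1 lay at its start. Lhx3, Lhx4 and Lhx5 were marked in 1, 2 and 2 of the 16 lists, but Lhx4 had a peak over its span in 9.

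Of the Irx genes, Irx6 was marked in 13 lists and had H3K4me2 in all 8, at 3.04 to 5.16 kb. Its H3K4me1 covered 2.46 and 3.07 kb in wild-type and 0 kb in both KO EB libraries. For that stage and mark the KO lists were shorter and other genes were marked less often too. Irx2 (chr13:72624430-72634196), a neural and limb gene, was marked in all 8 ES lists and 1 EB list. H3K4me2 covered 3.15 and 1.32 kb in wild-type and 1.2 and 4.31 kb in KO ES cells, and 0, 0, 0 and 0.734 kb in EB. H3K4me1 covered 0.253 to 0.755 kb in ES cells and 0 kb in EB, so that the stages overlapped for neither mark. Irx4, a ventricular heart gene, had H3K4me2 at 7.74 and 2.77 kb in wild-type and 7.21 and 0 kb in KO EB, and at 4.08 kb in 1 wild-type ES library. Irx1 had H3K4me1 in all 4 ES libraries, at 2.19 to 4.15 kb, and Irx3 and Irx5 were marked in 2 and 1 lists.

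Meis3 (chr7:16174012-16186510), active in the hindbrain, had H3K4me2 in all 8 libraries, at 1.65 to 2.43 kb in ES cells and 3.12 to 4.95 kb in EB. Its H3K4me1 covered 0 to 0.557 kb in ES cells, and 3.89 and 3.61 kb in wild-type against 2.32 and 2.24 kb in KO EB. The stages did not overlap for either mark, and KO was below wild type for H3K4me1 in EB, where the KO lists were shorter and other genes were marked less often as well. Meis1, a leukaemia and blood stem cell gene, had H3K4me2 in 4 of 4 ES libraries, at 1.37 to 1.76 kb, and in 1 EB library. Meis2 was marked in 7 ES and 2 EB lists, but had a peak over its span in all 16, and Meis1 in 13. With Lhx4 these are the longest genes of the list, and peaks inside them lay beyond the windows at their ends.

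Between stages, ES-only genes had a peak in both ES and neither EB library of 1 mark and genotype, and EB-only genes the reverse. For H3K4me2 in wild type, Six5, Irx2, Lhx9, Nkx2-1, Nkx2-2, Meis1 and Meis2 were ES-only, 7 of 14, against 8.34% of other genes. Six2 and Lhx1 were EB-only, 2 of 10, against 6.71%. In KO, Six2 alone was ES-only, 1 of 8, against 11.9%, and Dlx3, Dlx4, Nkx2-2 and Nkx6-2 were EB-only, 4 of 13, against 8.42%. The difference between the genotypes in these shares was not tested. In wild type, 11 genes were ES-only without ES replicate 2 and 4 EB-only without EB replicate 1. In KO, 2 were ES-only with each of the 4 libraries left out in turn, and 7 EB-only without ES replicate 2. With the higher-scoring 50% of each list, the calls of Nkx2-2, Six2 and Lhx1 in wild type and every KO call ended. Over the gene spans those of Lhx9, Meis1, Meis2, Six2 and Lhx1 in wild type ended and the KO calls stayed. Within 10000 bp those of Lhx9, Nkx2-1, Six2 and Lhx1 in wild type ended. The ES-only genes in wild type then numbered 8 with the higher-scoring 50% and 4 over the spans.

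For H3K4me1 the shares of other genes were higher than for H3K4me2. In wild type, Dlx4, Dlx5, Six5, Irx2, Lhx6, Lhx9 and Nkx2-9 were ES-only, 7 of 13, against 47.8%, and Nkx6-2 and Meis3 EB-only, 2 of 4, against 37.6%. In KO, Six5, Six6, Irx2, Irx6 and Nkx2-1 were ES-only, 5 of 13, against 65.6%, and 0 of 4 were EB-only, against 38.2%. The wild-type counts became 12 ES-only and 4 EB-only without EB replicate 2, and 11 ES-only without either ES library. Those in KO became 10 ES-only without ES replicate 2 and 9 without EB replicate 1, with 2 EB-only without EB replicate 2 and 1 without ES replicate 1. With the higher-scoring 50% of each list, the calls of Dlx4, Six5 and Nkx6-2 in wild type and of Six5 and Six6 in KO ended. With lists of equal length these ended too, as did that of Irx2 in wild type.

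Each gene was tested across all 16 H3K4me lists with a two-sided exact permutation test of the number of lists with a peak, with labels moved only within a mark and genotype or a mark and stage. Of 15810 genes marked in 1 to 15 lists, 0 (0%) differed between stages and 0 (0%) between genotypes at an adjusted p under 0.05, and 30 of the listed genes were among those tested. At an unadjusted p under 0.05, 747 genes (4.72%) differed between stages and 24 (0.152%) between genotypes, of which 3 and 0 were listed. The 3 were Irx2, in 7 fewer EB than ES lists (exact p = 0.00463, adjusted p = 0.414), Meis2, in 5 fewer (exact p = 0.0417, adjusted p = 0.601), and Nkx6-2, in 5 more (exact p = 0.0278, adjusted p = 0.601). The smallest p the permutations can give is 0.00154. Over 15810 genes, no gene could pass the adjusted threshold unless many genes shared a p that small. The counts of 0 were therefore not read as absence of differences. Within 1000 bp of the gene ends, Irx2 was in 2 fewer lists (exact p = 0.5).

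The same test on the base pairs under peaks also gave 0 genes (0%) between stages and 0 (0%) between genotypes at an adjusted p under 0.05. At an unadjusted p under 0.05, 2535 genes (16%) differed between stages, 6 of them listed, and 607 (3.84%) between genotypes, 1 of them listed. Irx2 and Meis3 reached the smallest possible exact permutation p of 0.00154 between stages (adjusted p = 0.0685 for each), with less under peaks in EB at Irx2 and more at Meis3. They did not stand out by this, since such an adjusted p over 15810 genes arises only when many genes share the smallest p. Dlx4 was the listed gene under 0.05 between genotypes (exact permutation p = 0.0185, adjusted p = 0.804).

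Where they were marked, the listed genes had wide peaks. The highest-scoring H3K4me2 peak at a listed gene had a median width of 4496 to 6904 bp per library, against 2758 to 3923 bp at other genes, and was wider in all 8 libraries. For H3K4me1 the ranges were 2506 to 5365.5 bp and 1627.5 to 2588 bp, again wider in all 8. H3K4me2 peaks of at least 5 kb were at 20% to 83.3% of the marked listed genes per library, against 9.44% to 27.6% of other marked genes.

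The ranks of their scores differed by mark. For H3K4me2 the listed genes' peaks ranked lower than those of other genes in all 8 libraries, at medians of 27.9% to 73.5% from the top of the list, against 24.5% to 41.3%. For H3K4me1 they ranked lower in 2 of 8 libraries, both from EB. In ES cells the H3K4me1 medians were 19.6% to 33.9%, against 50.8% to 53.2%. Scores are the authors' values, and width and rank were compared within each list.

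**Figure D4:**
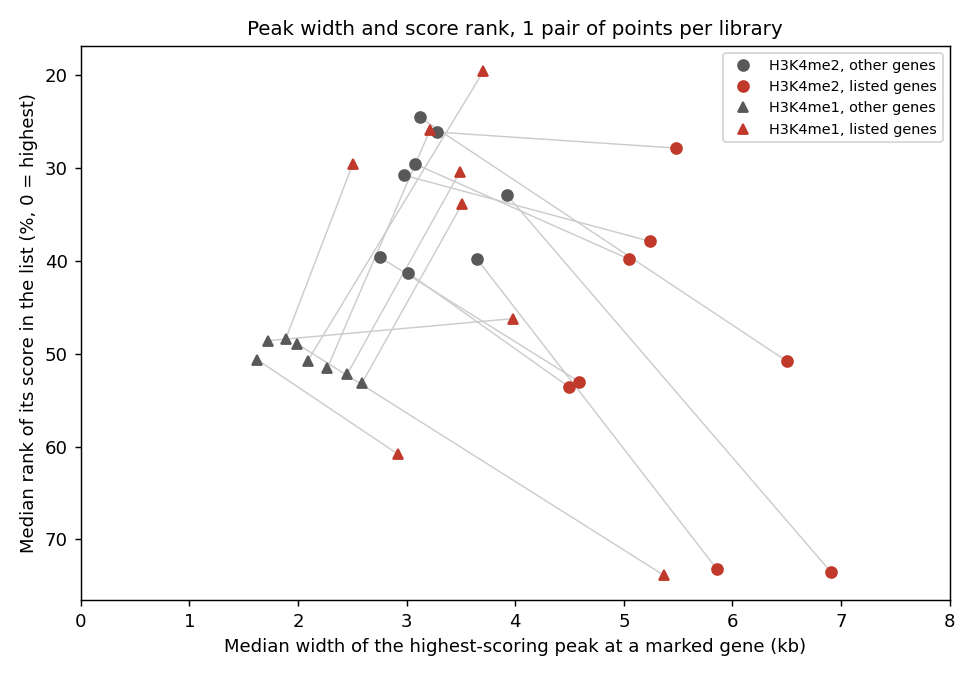
Median width (horizontal axis, kb) and median score rank (vertical axis, % from the top of the list, drawn with the top rank uppermost) of the highest-scoring peak at each marked gene; a line joins the listed genes (red) and other genes (grey) of 1 library. All 16 red points lie to the right of their grey partner, and the 8 H3K4me2 red points lie below theirs.

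Around the start site the marks took different shapes. At the start itself H3K4me2 covered 36.5% of the 24 listed genes with a RefSeq start in ES cells and 33.3% in EB (mean of 4 libraries), against 48.1% and 46.0% of 17468 other genes. At 2 kb into the gene the H3K4me2 shares were 31.2% and 27.1%, against 23.2% and 26.6%. H3K4me1 covered the start of 27.1% of the listed genes in ES cells and 9.38% in EB, against 5.62% and 2.89%. In ES cells 25% were under H3K4me1 at 2 kb into the gene and 14.6% at 2 kb before it, and in EB 5.21% and 16.7%. H3K4me1 thus lay more often inside the genes in ES cells and before them in EB, a description over 24 genes with no test.

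**Figure D5:**
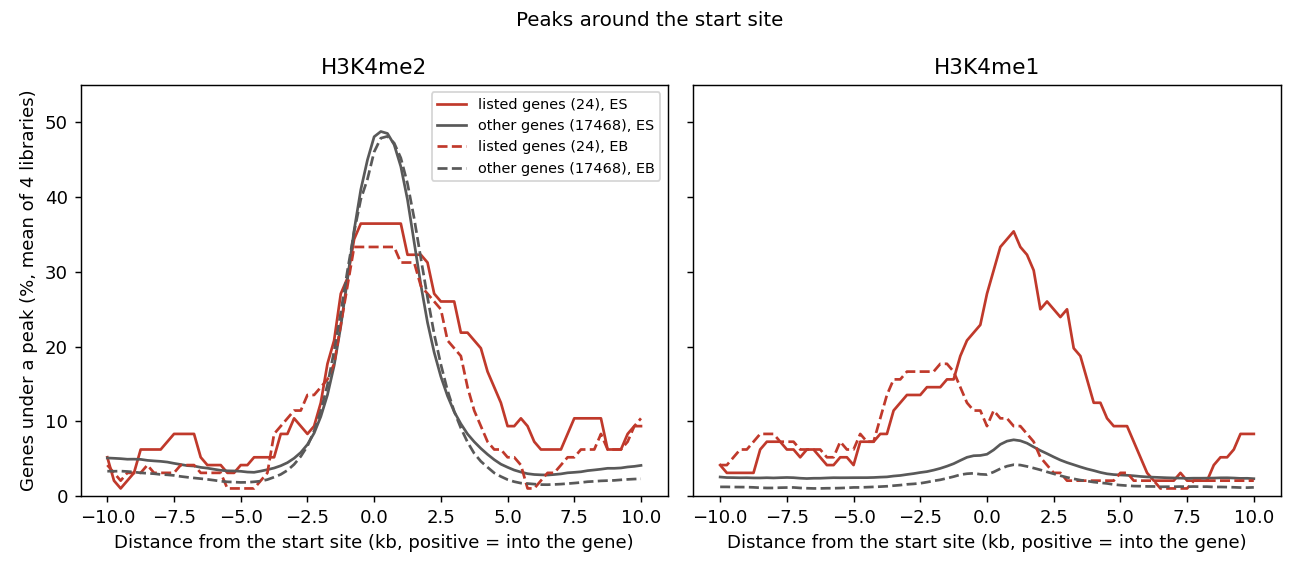
Share of genes under a peak (vertical axis, %, mean of 4 libraries) by distance from the start site (horizontal axis, kb, positive into the gene) for H3K4me2 (left) and H3K4me1 (right); red lines are 24 listed genes, grey lines 17468 others, solid lines ES cells and dashed lines EB. For H3K4me1 the solid red line is at 27.1% at the start, and the dashed red line is at 16.7% at 2 kb before it and 5.21% at 2 kb into the gene.

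PRDM16 lists were short, and their peaks lay at few listed or other genes. In its 8 lists a peak lay at Lhx1 in wild-type EB replicate 1, at Dlx6 in KO ES replicate 1 and at Meis3 in KO ES replicate 2, and at 0 listed genes in the other 5. Among other protein-coding genes 0.398% to 1.62% had a PRDM16 peak per list. The KO libraries, whose labels could not be checked, held 2 of the 3 peaks. The KO ES lists were also the longest, with 586 and 499 PRDM16 peaks against 331 and 191 in wild type. Among these, KO replicate 1 and wild-type replicate 2 have another title prefix than the other PRDM16 libraries. Genes called by genotype for H3K4me2, such as Nkx2-2, Six2, Dlx4 and Nkx2-1, had no PRDM16 peak in either genotype.

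Genotype calls were also made among the other gene lists. For H3K4me2 in ES cells, 6 of 43 other homeobox genes were wild-type-only, among them Bsx, Gsc and Hmx1, against 2.35% of genes outside the 32, and 0 of 34 KO-only, against 3.62%. In EB 2 of 24 were wild-type-only (Cdx1 and Nkx2-5), against 3.33%, and 8 of 33 KO-only, among them Emx2, En2 and Hmx1, against 4.16%. Of 20 Hox genes, 6 were wild-type-only in ES cells, among them Hoxa13, Hoxb13 and Hoxb4, against 2.35%, and 0 of 10 KO-only, against 3.62%. In EB 2 of 4 Hox genes were wild-type-only (Hoxb1 and Hoxd4), against 3.33%, and 0 of 3 KO-only, against 4.16%.

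Among the partner genes the H3K4me2 genotype calls were 0 in ES cells, and in EB 1 of 10, Tle4, a Groucho co-repressor, was KO-only, against 4.16%. For H3K4me1 in EB, 4 of 5 partner genes were wild-type-only, among them Dach1, Eya2 and Tle1, against 42.5% of genes outside the 32. Among endoderm markers in ES cells, Foxa2 was wild-type-only for H3K4me2, 1 of 3, against 2.35%, and Afp KO-only, 1 of 3, against 3.62%. Gata4 was wild-type-only for H3K4me1 there, 1 of 2, against 12.9%, and Sox17 KO-only, 1 of 2, against 10.6%. Pou5f1 was KO-only for H3K4me1 in EB, 1 of 2 pluripotency markers, against 14.2%.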

How the data were processed

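Each of the 24 libraries had its own deposited peak list, with a position, a name of the MACS form and a score of at least 50, for which the sources used here give no unit. The authors used mm10, Bowtie2, SAMtools 1.5, bedtools, MACS2, deepTools and HOMER 4.10, per the submitters' processing notes, with no role or order given. Use of a control library, duplicate removal and depth are not given. Only autosomal, X and Y peaks were kept, which left out 1 peak in each list.

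Genes came from the RefSeq table of GRCm38.p6, which shares coordinates with mm10. A peak touching the 2500 bp either side of a gene end by at least 1 bp marked the gene, without strand, since starts were given for 24 of the listed genes. Exons and UTRs were not resolved. Groups were read from the sample titles.

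Exact permutation tests ran over 1296 assignments within strata, with Benjamini-Hochberg adjustment over 15810 genes, in Python 3.11.15 with numpy 2.4.6 and pandas 2.3.3, and were tested on simulated data. Same-numbered libraries did not deviate together (correlations -0.0252 to 0.0257), so replicate numbers were not used as pairs. All listed genes could be named, and from each other list at most 3 genes per direction, by the difference in lists and then alphabetically. Prdm16 and the pluripotency markers were named as checks after their values were seen. The listed genes and the other lists were chosen with earlier results of these data known. Alternatives were windows of 1000 and 10000 bp, gene spans, higher scores, equal list lengths, covered base pairs, left-out libraries, the library series and a replicate block.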

Additional observations from a re-analysis of the deposited data

Results flagged for a closer look

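The KO minus wild-type difference in the number of genes marked by H3K4me2, counting peaks no more than 2500 bp from either end, had opposite signs at the 2 stages. Over the 32 listed genes it was -6.5 in ES cells and 4.5 in EB, with every KO library below both wild-type libraries in ES cells and above both in EB. In EB this did not hold for peaks over the gene spans, with 10 and 15 genes in wild type against 17 and 15 in KO. Nor did it hold there for covered length over the spans with 2500 bp flanks. Over the 71 other homeobox genes it was -12.0 in ES cells and 11.5 in EB, with the libraries in the same order. The difference between the stages was not tested in either list.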

How the results depend on the processing

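The sign of the KO minus wild-type difference in the number of genes marked by H3K4me2 was kept at both stages, for the listed and the other homeobox genes. This held under each alternative of window, list length and left-out library, and with the higher-scoring 50% of each list. A fixed score threshold was not applied to this difference. The EB genotypes no longer stood apart, however, when peaks over the gene spans were counted (10 and 15 against 17 and 15 listed genes). They also overlapped in covered length over the spans with 2500 bp flanks (68.8 and 87.8 against 88.9 and 69.5 kb). Covered length within 2500 bp of the gene ends kept them apart (41.9 and 47.5 against 64.9 and 50.8 kb). With the higher-scoring 50% of each list the difference was 2.5 in EB for the listed genes, and -2.5 in ES cells and 1.5 in EB for the other homeobox genes. At equal list lengths the listed genes gave 7 in EB. The causes were not tested.

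Listed genes marked in both libraries of a group changed with list length. With the higher-scoring 50% they were 3 for H3K4me2 in wild-type and 5 in KO EB, and for H3K4me1 8 in KO ES cells, 1 in wild-type EB and 2 in KO EB. With equal list lengths they were 5 for H3K4me2 in wild-type EB, and for H3K4me1 8 in wild-type and 8 in KO ES cells and 1 in wild-type EB. Within 1000 bp 5 were marked by H3K4me2 in KO ES cells, and within 10000 bp, added after seeing the data, 7 by H3K4me1 in wild-type EB. Summed over marks, KO-only genes numbered 2 and EB-only genes 4 with the higher-scoring 50%, and wild-type-only genes 10 without the libraries of another series. Base pairs under peaks at the listed genes averaged 73.5 kb per list, 48.3 kb with equal list lengths and 38.1 kb with the higher-scoring 50%. Genes with a peak over the span averaged 13.6 per list and 9.5 with equal list lengths.

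With each library left out in turn, the H3K4me2 difference was -8 to -5 in ES cells and 3.5 to 5.5 in EB for the listed genes, and -14.5 to -9.5 and 9 to 14 for the other homeobox genes. For H3K4me1 it was -3.5 to 2.5 in ES cells and -3 to 4 in EB. Listed genes marked in the library or libraries left in a group numbered 17 to 19 and 10 to 13 for H3K4me2 in wild-type and KO ES cells, and 10 to 12 and 15 to 16 in EB. For H3K4me1 they numbered 17 to 18 and 14 to 20 in ES cells, and 6 to 10 and 5 to 12 in EB. Calls, summed over marks whose shares at other genes differ, came to 6 to 10 wild-type-only, 6 to 11 KO-only, 20 to 25 ES-only and 8 to 11 EB-only. Genes past the adjusted threshold numbered 0 throughout. With the replicate number as a block they were also 0. At an unadjusted exact permutation p under 0.05 there were then 376 genes between stages and 5 between genotypes. The block allows fewer assignments, so its smallest possible p is larger, and this 0 cannot show whether the block matters. Unknown depth limits each comparison of peak numbers.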
